A study of Mus musculus with 16 samples.

Results

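The coagulation and fibrinolysis genes described here are *F3*, *F7*, *F10*, *F5*, *F13a1*, *Thbd*, *Plau*, *Plaur* and *Serpinb2*. They are 9 of the 55604 genes listed in the data and were chosen with earlier results of these data known. The 9 genes were compared between Tim-4+ and Tim-4- tumor-associated macrophages (TAMs). RNA was sequenced from peritoneal TAMs of C57BL/6 mice bearing ID8 tumors in the peritoneal cavity, where ID8 is a mouse ovarian epithelial cancer line. Each of 4 numbered pairs (793, 784, 783 and 779) gave 1 Tim-4+ and 1 Tim-4- library, and all 8 libraries came from tumor-bearing, wild-type mice, with no tumor-free group. Tim-4+ TAMs were captured with an antibody to Tim-4 and magnetic beads after a density gradient, and Tim-4- TAMs were then enriched from the remaining cells by beads against F4/80, a macrophage surface protein. The Tim-4- fraction was therefore what that second capture took from cells that had not been captured first. The methods do not state whether a pair was 1 mouse or a pool.

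In clotting, tissue factor on a cell surface binds factor VII, the complex activates factor X, and activated factors X and V together turn prothrombin into thrombin. Thrombin makes fibrin, factor XIII cross-links it, and thrombomodulin on a cell surface redirects thrombin toward the anticoagulant protein C. Urokinase, held at the cell by its receptor, makes plasmin, which dissolves fibrin, and plasminogen activator inhibitors block urokinase. Most circulating clotting factors are made by the liver, but macrophages also make several, and resident macrophages of the mouse peritoneum are known for making factor V.

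The library totals were 53527928 to 57768202 counts for Tim-4+ TAMs and 55618306 to 69594245 counts for Tim-4- TAMs. Levels are CPM, counts relative to the library total, after TMM scaling, a correction for library composition, and 3 counts, the lowest number read as a signal here, equalled 0.0382 to 0.0630 CPM on this scale. *Timd4*, the gene for Tim-4, checked the labels. It was at 1161, 1744, 524 and 1166 CPM in Tim-4+ TAMs and at 85.0, 11.1, 22.3 and 1.97 CPM in Tim-4- TAMs (pairs 793, 784, 783 and 779 in this order, used for all values). The Tim-4- value of pair 793 was 7.32% of its Tim-4+ partner and that of pair 779 was 0.169%. Macrophage markers led both fractions, with 8 genes summing to 44733 to 57187 CPM in Tim-4+ and 21388 to 34170.5 CPM in Tim-4- TAMs, and *Lyz2* was the most abundant. Lower levels of a gene in bulk RNA can mean fewer cells that make it or less RNA per cell, which cannot be told apart in these data.

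All 9 genes had enough counts to be tested, with 468 to 279594 counts per library. In the paired fit, 6 of the 9 were higher in the Tim-4+ fraction at an adjusted p under 0.05 (*F5*, *Serpinb2*, *F10*, *Plaur*, *F7* and *Thbd*), and 1, *Plau*, was lower. *F3* and *F13a1* did not pass. Of all 16861 genes tested, 8.97% were called higher and 8.43% lower, 17.4% in all. The 9 genes had a median log2 fold change of 0.96, against -0.00 over all genes tested. Of the 8 macrophage markers, 6 were also called higher in Tim-4+ TAMs and 0 lower. Their log2 fold changes ran from 0.57 (*Mertk*) to 1.34 (*Cd68*) among those called. *F7* (0.96), *Thbd* (0.82) and *Plaur* (1.08) lay within this range. Since the 9 were chosen with earlier results of these data known, their shares beside those of all genes are descriptions, not a test. Of the 9, 4 were called with at least a 2-fold increase (*F5*, *Serpinb2*, *F10* and *Plaur*), a call that 3.8% of all genes reached, and 0 with at least a 2-fold decrease, a call that 5.79% of all genes reached (*Plau* was 1.79-fold lower). Groups did not overlap at all for 2 of them, *F10* and *Plaur*, both higher in Tim-4+ TAMs, and 6.84% of all genes were separated in that direction and 5.92% in the other, 12.8% in all. In 7 of 9 genes the sign was the same in all 4 pairs, as it was in 42.6% of all genes. The calls did not hold in every fit. In edgeR's test without the pair term, 0 of the 9 genes were called, although the 6 genes above and *F3*, which was lower, had an unadjusted p under 0.05. In the paired test without pair 784, again 0 were called, with the 6 genes and *Plau* at an unadjusted p under 0.05. Without pair 784 the log2 fold changes were nearly as large, at 2.51 for *F5*, 2.55 for *Serpinb2*, 1.52 for *F10* and 1.02 for *Plaur*, with adjusted p-values of 0.0622 to 0.0695 (edgeR). Scaling by total counts moved the median of all genes by -0.36 on the log2 scale and left 5 of the 9 genes called higher and 1 lower, while the calls over all genes went from 1512 higher and 1421 lower to 789 higher and 4906 lower. The p-values measure the spread between these libraries, which may in part be technical.

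**Figure D1:**
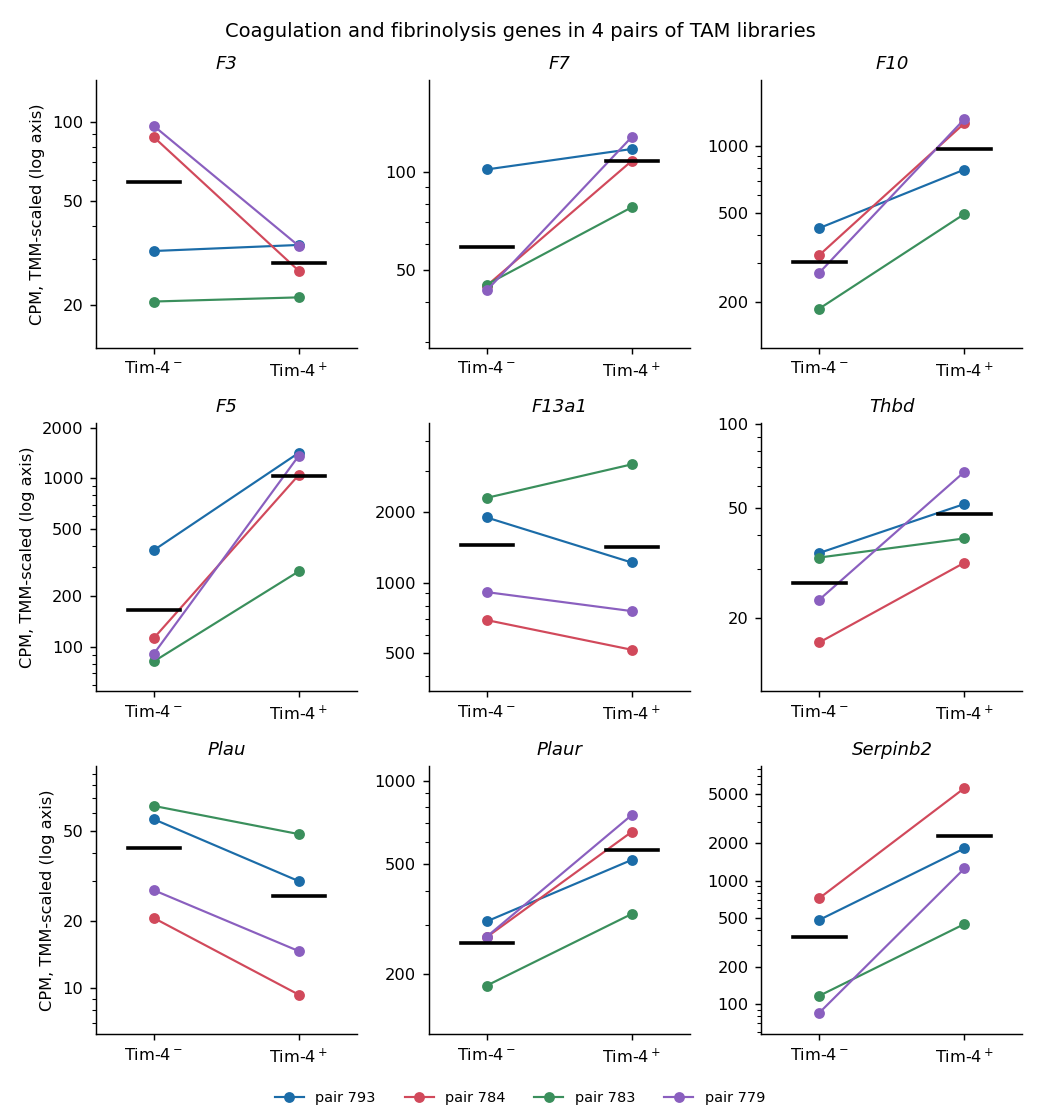
CPM after TMM scaling (log axis) of the 9 genes in Tim-4- and Tim-4+ TAMs, with a line joining the libraries of each of 4 pairs and a black bar at the mean of 4. All 4 lines climb toward Tim-4+ for *F5*, *F7*, *F10*, *Thbd*, *Plaur* and *Serpinb2*, all 4 descend for *Plau*, and for *F3* pairs 784 and 779 descend while pairs 793 and 783 are level.

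*F3* encodes tissue factor, the membrane receptor that starts clotting (chr3:121723537-121735048, GRCm38, plus strand; ENSMUSG00000028128.13). It was at 33.9, 27.0, 21.4 and 33.6 CPM in Tim-4+ TAMs and at 32.2, 87.2, 20.7 and 96.2 CPM in Tim-4- TAMs. The pairs split, since pairs 793 and 783 had nearly equal levels in the 2 fractions, with log2 ratios of 0.08 and 0.05, and pairs 784 and 779 had log2 ratios of -1.69 and -1.52. The mean was 29.0 ± 5.97 CPM in Tim-4+ and 59.1 ± 38.2 CPM in Tim-4- libraries (SD, n = 4 each). The log2 fold change of -0.77 (SE 0.35, 95% interval -1.62 to 0.08) did not pass in the quasi-likelihood test of edgeR with Benjamini-Hochberg adjustment (adjusted p = 0.183). Without pair 783 it passed, at -1.06 (adjusted p = 0.0349 in the same edgeR test), and without pairs 784 and 779, a fit added after the data were seen, it was 0.06 (adjusted p = 0.839, edgeR).

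The Tim-4- libraries with high *F3* were also those with the most mesothelial and epithelial transcripts. The 11 markers of these cell types, which line the peritoneum or form carcinomas, were all called lower in Tim-4+ TAMs, with *Krt19* the most abundant. Their summed level was 470.3, 1418, 952 and 2219 CPM in Tim-4- TAMs and 116, 208, 417 and 249 CPM in Tim-4+ TAMs. The 2 highest sums were in pairs 784 and 779, where *F3* was 87.2 and 96.2 CPM, and the sum in pair 783 was 952 CPM with *F3* at 20.7 CPM. The part of these cells in the *F3* values was not tested.

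**Figure D2:**
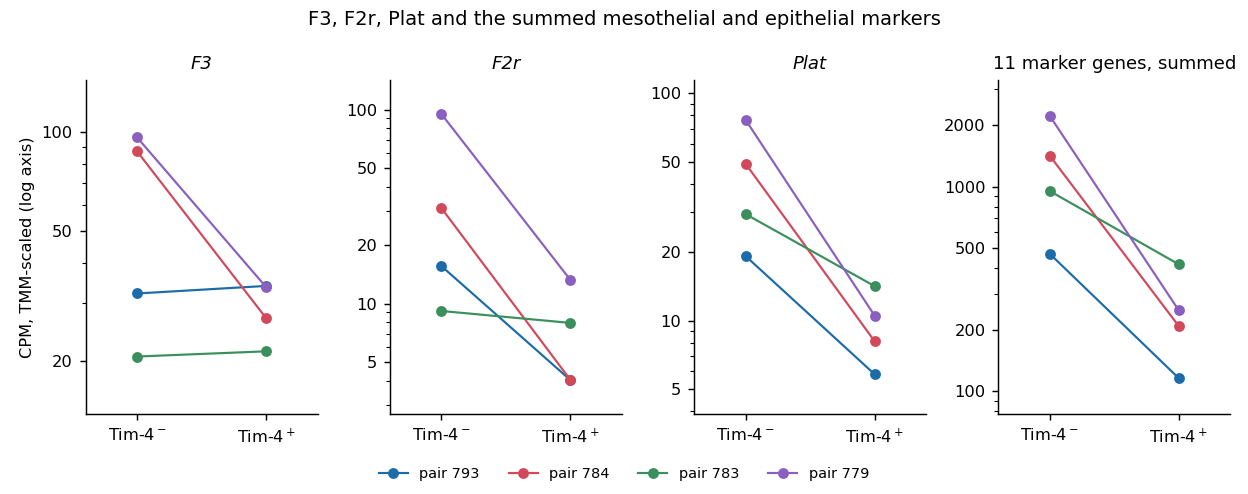
CPM after TMM scaling (log axis) of *F3*, *F2r*, *Plat* and the sum of 11 mesothelial and epithelial markers, with a line for each of 4 pairs. The Tim-4- libraries of pairs 784 and 779 are the highest of the 8 in all 4 panels, for example 1418 and 2219 CPM for the marker sum.

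The *F3* promoter held 2 matches to an AP-1 motif, and its 250 bases before the transcription start are shown for that reason (chr3:121723287-121723536, plus strand, RefSeq, GRCm38.p6), with the matches in capitals. AP-1 is a dimer of the FOS and JUN families, and its motif was searched for here as TGANTCA, where N is any base.
*F3* promoter: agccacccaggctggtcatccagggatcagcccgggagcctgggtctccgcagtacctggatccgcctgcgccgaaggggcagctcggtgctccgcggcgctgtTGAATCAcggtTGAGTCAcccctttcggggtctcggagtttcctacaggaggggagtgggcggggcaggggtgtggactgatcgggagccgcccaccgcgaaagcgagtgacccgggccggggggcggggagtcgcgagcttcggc
The matches began 146 and 135 bases before the start. Of 32851 RefSeq windows of the same length, 6.75% held TGANTCA on either strand, and 3 of the 7 genes with a window did, the others being *Plaur* and *Serpinb2*. The counts depend on allowing any base at N, as the *Serpinb2* match was TGAATCA. *Thbd* and *Plau* had no window in the table. AGATAA, a motif of GATA factors, stood in 0 of these 7 windows and in 9.99% of all. A match is a stretch of letters, and binding was not measured.

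*F7* encodes factor VII, the protease that tissue factor binds (chr8:13026034-13035809, plus strand; ENSMUSG00000031443.7). Its levels were 118, 108, 77.9 and 128 CPM in Tim-4+ TAMs and 102, 44.8, 45.1 and 43.3 CPM in Tim-4- TAMs. Each pair was higher in Tim-4+, but the Tim-4- library of pair 793, at 102 CPM, stood above the Tim-4+ library of pair 783 and more than 2-fold above the other 3 Tim-4- libraries. The mean was 108 ± 21.6 CPM against 58.8 ± 28.8 CPM (SD, n = 4 each), and the log2 fold change was 0.96 (SE 0.22, 95% interval 0.44 to 1.48, adjusted p = 0.0305 in the quasi-likelihood test of edgeR with Benjamini-Hochberg adjustment). The ratio of *F7* to *F3*, both per kb of exon, was 4.71, 5.44, 4.94 and 5.18 in the Tim-4+ libraries and 4.30, 0.697, 2.97 and 0.612 in the Tim-4- libraries. The 4 Tim-4+ libraries lay close together and above all 4 Tim-4- libraries, and in pairs 784 and 779 the Tim-4- fraction had less *F7* than *F3* RNA per kb. The Tim-4- libraries of pairs 784 and 779 also held the most mesothelial and epithelial transcripts. The part of those cells in this ratio was not tested.

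*F10* encodes factor X, the protease at which the clotting pathways meet, and is the next gene on the same strand, 1498 bases beyond the end of *F7* (chr8:13037308-13056676; ENSMUSG00000031444.16). It was at 784, 1265, 496 and 1321 CPM in Tim-4+ TAMs and at 429, 325, 187 and 271 CPM in Tim-4- TAMs. Every Tim-4+ library was above every Tim-4- library. The mean was 966 ± 395 CPM against 303 ± 101 CPM (SD, n = 4 each), a 3.10-fold difference in the fit (log2 fold change 1.63, SE 0.24, 95% interval 1.07 to 2.19, adjusted p = 0.00875 in the quasi-likelihood test of edgeR with Benjamini-Hochberg adjustment). *F10* exceeded *F7* per kb of exon in all 8 libraries, by 4.53, 7.96, 4.33 and 7.02 times in Tim-4+ TAMs and by 2.87, 4.94, 2.82 and 4.26 times in Tim-4- TAMs. Within each pair the excess was larger in Tim-4+ TAMs, although the groups overlapped. The gene that follows *F10* by 4237 bases, *Proz*, which encodes the anticoagulant protein Z, was at 4.15 ± 1.70 CPM in Tim-4+ and 3.22 ± 0.899 CPM in Tim-4- libraries (SD, n = 4 each) and did not pass (log2 fold change 0.31, SE 0.33, adjusted p = 0.552, edgeR).

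*F5* encodes factor V, the cofactor of factor X in making thrombin (chr1:164151838-164220277, plus strand; ENSMUSG00000026579.8). Its levels were 1420.4, 1051, 282 and 1367 CPM in Tim-4+ TAMs and 376, 113, 82.4 and 91.5 CPM in Tim-4- TAMs. Each pair had at least 3-fold more *F5* in its Tim-4+ library, with log2 ratios from 1.77 (pair 783) to 3.90 (pair 779), yet the groups overlapped because the Tim-4- library of pair 793 exceeded the Tim-4+ library of pair 783. The mean was 1030.0 ± 525 CPM against 166 ± 141 CPM (SD, n = 4 each). The log2 fold change of 2.70 (SE 0.40, 95% interval 1.73 to 3.66) was the largest of the 9 genes and ranked 114 of 16861 (adjusted p = 0.0114 in the quasi-likelihood test of edgeR with Benjamini-Hochberg adjustment). With no count filter *F5* missed the threshold (adjusted p = 0.0810, edgeR) at nearly the same fold change of 2.68.

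The gene before *F5* on the same strand, with a gap of 1811 bases, is *Selp*, which encodes the adhesion receptor P-selectin. *Selp* was at 746, 743, 218 and 716 CPM in Tim-4+ TAMs and at 238, 68.9, 66.9 and 71.9 CPM in Tim-4- TAMs, and it was called higher (log2 fold change 2.52, SE 0.38, adjusted p = 0.0116 in the quasi-likelihood test of edgeR with Benjamini-Hochberg adjustment). Its pattern was also the nearest to that of *F5* among 8529 protein-coding genes that averaged 10 CPM or more, with a root mean square difference of 0.238 in centred log2 CPM over the 8 libraries. *Slc19a2*, a thiamine transporter gene on the other side of *F5*, had a log2 fold change of 0.02 (adjusted p = 0.955, edgeR). Platelets also hold factor V and P-selectin. The 9 platelet and megakaryocyte markers summed to 11.3 to 18.3 CPM in Tim-4+ and 8.62 to 19.6 CPM in Tim-4- TAMs, with *Treml1* at 0 counts in all libraries and *Itgb3*, which macrophages also express, the most abundant. Of the 4 of these markers that could be tested, 1 was called, *Clec1b*, higher in Tim-4+ TAMs. It was at 3.92 ± 1.07 CPM against 0.368 ± 0.0641 CPM (SD, n = 4 each), with no overlap (log2 fold change 3.38, SE 0.32, adjusted p = 0.00354, edgeR). The part of platelets in the *F5* and *Selp* values was not tested.

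The windows of 250 bases before the starts of *F5* (chr1:164151585-164151834) and *F10* (chr8:13037058-13037307), both on the plus strand and from RefSeq on GRCm38.p6, are shown because these genes had the largest increases among the clotting factors.
*F5* promoter: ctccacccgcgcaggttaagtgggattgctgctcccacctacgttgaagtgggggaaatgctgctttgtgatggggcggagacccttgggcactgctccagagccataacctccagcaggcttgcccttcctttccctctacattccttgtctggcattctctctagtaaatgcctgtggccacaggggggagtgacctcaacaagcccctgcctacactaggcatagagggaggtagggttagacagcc
*F10* promoter: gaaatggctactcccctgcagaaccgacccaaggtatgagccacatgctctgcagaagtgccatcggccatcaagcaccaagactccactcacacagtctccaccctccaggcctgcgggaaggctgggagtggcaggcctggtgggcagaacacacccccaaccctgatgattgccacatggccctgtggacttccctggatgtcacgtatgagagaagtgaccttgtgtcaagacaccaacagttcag
No capitals appear, since neither window held a match on either strand to the AP-1 and GATA letters above. They also lacked GAGGAA, a motif of the myeloid factor PU.1 that stood in 23.2% of all windows. The TATA box letters, TATAAA, stood in 12.4% of all windows and in neither of these. This says only that these letters are not in these 250 bases.

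*F13a1* encodes the A subunit of factor XIII, the transglutaminase that cross-links fibrin (chr13:36867178-37050244, minus strand; ENSMUSG00000039109.16). It was at 1219.7, 519, 3192 and 757 CPM in Tim-4+ TAMs and at 1897, 694, 2298 and 912 CPM in Tim-4- TAMs. The level followed the pair more than the fraction. The highest library was 6.16 times the lowest within Tim-4+ TAMs and 3.31 times within Tim-4- TAMs, whereas the libraries of a pair differed by at most 1.56 times. Pair 783 was highest in both fractions and the only pair with more *F13a1* in Tim-4+ TAMs. The mean was 1422 ± 1215 CPM against 1450.2 ± 770.4 CPM (SD, n = 4 each), and the log2 fold change was -0.22 (SE 0.20, 95% interval -0.69 to 0.26, adjusted p = 0.505 in the quasi-likelihood test of edgeR with Benjamini-Hochberg adjustment). *F13b*, which encodes the carrier subunit of factor XIII, was at 0 counts in all 8 libraries. Pair 783, the pair with the most *F13a1*, had the least *F5*, *F7* and *F10* of the 4 in Tim-4+ TAMs.

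*Thbd* encodes thrombomodulin (chr2:148404466-148408188, minus strand; ENSMUSG00000074743.4). It was at 51.6, 31.7, 38.8 and 67.5 CPM in Tim-4+ TAMs and at 34.4, 16.3, 33.1 and 23.3 CPM in Tim-4- TAMs. All 4 pairs were higher in Tim-4+, the log2 ratio ran from 0.23 (pair 783) to 1.53 (pair 779), and the groups overlapped. With means of 47.4 ± 15.7 and 26.8 ± 8.53 CPM (SD, n = 4 each), the log2 fold change was 0.82 (SE 0.21, 95% interval 0.34 to 1.31, adjusted p = 0.0365 in the quasi-likelihood test of edgeR with Benjamini-Hochberg adjustment). *Thbd* was the call lost most often of the 7, as it missed the threshold when libraries were scaled by total counts (log2 fold change 0.47, adjusted p = 0.0737, edgeR) and when pair 779, 784 or 793 was left out (adjusted p from 0.0848 to 0.153, edgeR). *Cd93*, the nearest gene at the higher coordinate, 28451 bases away, encodes a receptor that is related to thrombomodulin in its domain structure. It was called higher too, with a log2 fold change of 1.42 (SE 0.37, adjusted p = 0.0467, edgeR) and levels from 199 to 671 CPM in Tim-4+ and from 44.8 to 239 CPM in Tim-4- TAMs. Endothelial cells also make thrombomodulin. The 6 endothelial markers summed to 6.30 to 15.8 CPM in Tim-4+ and to 17.9 to 55.5 CPM in Tim-4- TAMs. Most of this was *Esam*, called lower, at a mean of 7.80 CPM in Tim-4+ and 32.1 CPM in Tim-4- TAMs. The part of these cells in the *Thbd* values was not tested.

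*Plau* encodes urokinase, the plasminogen activator (chr14:20836660-20843385, plus strand; ENSMUSG00000021822.3). It was at 29.9, 9.36, 48.4 and 14.6 CPM in Tim-4+ TAMs and at 56.4, 20.5, 64.6 and 27.3 CPM in Tim-4- TAMs. In each pair the Tim-4+ library was the lower, with log2 ratios of -0.91, -1.13, -0.42 and -0.90, yet the groups overlapped widely, since the highest library was 5.17 times the lowest within Tim-4+ TAMs. The mean was 25.6 ± 17.6 CPM against 42.2 ± 21.6 CPM (SD, n = 4 each). The log2 fold change was -0.84 with a small SE of 0.14 (95% interval -1.15 to -0.52, adjusted p = 0.0104 in the quasi-likelihood test of edgeR with Benjamini-Hochberg adjustment), and without the pair term the adjusted p was 0.496 at a log2 fold change of -0.72 (edgeR). The order of the pairs was the same in both fractions, with pair 783 highest, then 793, 779 and 784.

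*Plaur* encodes the urokinase receptor, a lipid-anchored surface protein (chr7:24462484-24475968, plus strand; ENSMUSG00000046223.10). It moved opposite to *Plau*, at 517, 653, 329.8 and 751 CPM in Tim-4+ TAMs and 310.0, 272, 182 and 273 CPM in Tim-4- TAMs. The groups did not overlap, and the lowest Tim-4+ library (pair 783) was just above the highest Tim-4- library (pair 793). The mean was 562 ± 182 CPM against 259 ± 54.6 CPM (SD, n = 4 each), and the log2 fold change was 1.08 (SE 0.16, 95% interval 0.72 to 1.44, adjusted p = 0.00840 in the quasi-likelihood test of edgeR with Benjamini-Hochberg adjustment), the lowest adjusted p of the 9.

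*Serpinb2* encodes plasminogen activator inhibitor 2, which blocks urokinase (chr1:107511423-107535478, plus strand; ENSMUSG00000062345.10). Its levels were 1819.9, 5594, 445 and 1252 CPM in Tim-4+ TAMs and 481, 721, 117 and 85.4 CPM in Tim-4- TAMs. The Tim-4+ library of pair 784 held the highest level of any of the 9 genes, and the groups overlapped because the Tim-4- libraries of pairs 793 and 784 exceeded the Tim-4+ library of pair 783. Each pair was higher in Tim-4+ TAMs, with log2 ratios of 1.92, 2.96, 1.93 and 3.87. The mean was 2278 ± 2282 CPM against 351 ± 305 CPM (SD, n = 4 each), and the log2 fold change was 2.66 (SE 0.37, 95% interval 1.78 to 3.53, adjusted p = 0.00907 in the quasi-likelihood test of edgeR with Benjamini-Hochberg adjustment), which ranked 117 of 16861. *Serpinb10* overlaps *Serpinb2* on the same strand and had 24050 counts in all, against 550312 for *Serpinb2*. Its log2 fold change was 1.32 (SE 0.24, adjusted p = 0.0160, edgeR). Reads that the counter found ambiguous between genes were set aside.

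The windows of 250 bases before the starts of *Plaur* (chr7:24462233-24462482) and *Serpinb2* (chr1:107511173-107511422), both on the plus strand and from RefSeq on GRCm38.p6, are shown as the fibrinolysis genes that were called higher. Capitals mark matches to AP-1 (TGACTCA in *Plaur*, TGAATCA in *Serpinb2*), to the PU.1 motif GAGGAA or its reverse complement TTCCTC, and to TATAAA.
*Plaur* promoter: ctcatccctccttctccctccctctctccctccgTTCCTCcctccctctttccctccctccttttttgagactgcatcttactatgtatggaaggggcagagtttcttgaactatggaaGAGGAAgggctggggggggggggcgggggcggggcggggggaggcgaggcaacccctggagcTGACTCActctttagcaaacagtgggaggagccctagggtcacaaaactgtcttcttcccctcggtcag
*Serpinb2* promoter: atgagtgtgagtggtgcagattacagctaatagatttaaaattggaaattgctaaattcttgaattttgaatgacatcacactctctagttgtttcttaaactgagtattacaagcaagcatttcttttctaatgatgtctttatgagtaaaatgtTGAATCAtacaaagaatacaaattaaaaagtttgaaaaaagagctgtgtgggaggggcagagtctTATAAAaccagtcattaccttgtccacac
The AP-1 match began 69 bases before the start in *Plaur* and 94 bases before it in *Serpinb2*. *Plaur* also had PU.1 letters 216 and 131 bases before its start, and *Serpinb2* was the only one of the 7 genes with TATAAA, at 29 bases. PU.1 letters stood in 3 of the 7 windows (*F7*, *F13a1* and *Plaur*).

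Since urokinase, its receptor and its inhibitor act together, their ratios were read within each library, per kb of exon, which needs no scaling between libraries. *Serpinb2* stood to *Plau* at 61.3, 602, 9.25 and 86.3 in Tim-4+ TAMs and at 8.59, 35.4, 1.82 and 3.16 in Tim-4- TAMs. *Plaur* stood to *Plau* at 15.6, 63.0, 6.16 and 46.4 in Tim-4+ TAMs and at 4.97, 11.99, 2.54 and 9.05 in Tim-4- TAMs. Both ratios were higher in Tim-4+ TAMs in 4 of 4 pairs and overlapped between the groups, and all 8 libraries had more *Serpinb2* and *Plaur* than *Plau* RNA per kb. *Serpinb2* exceeded *Plaur* in all 4 Tim-4+ libraries (3.92, 9.55, 1.503 and 1.86 times) but only in pairs 793 and 784 of Tim-4- TAMs, where pairs 783 and 779 had 0.717 and 0.349. These ratios are descriptions, and since they use the same counts as the fits they add no independent test.

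**Figure D3:**
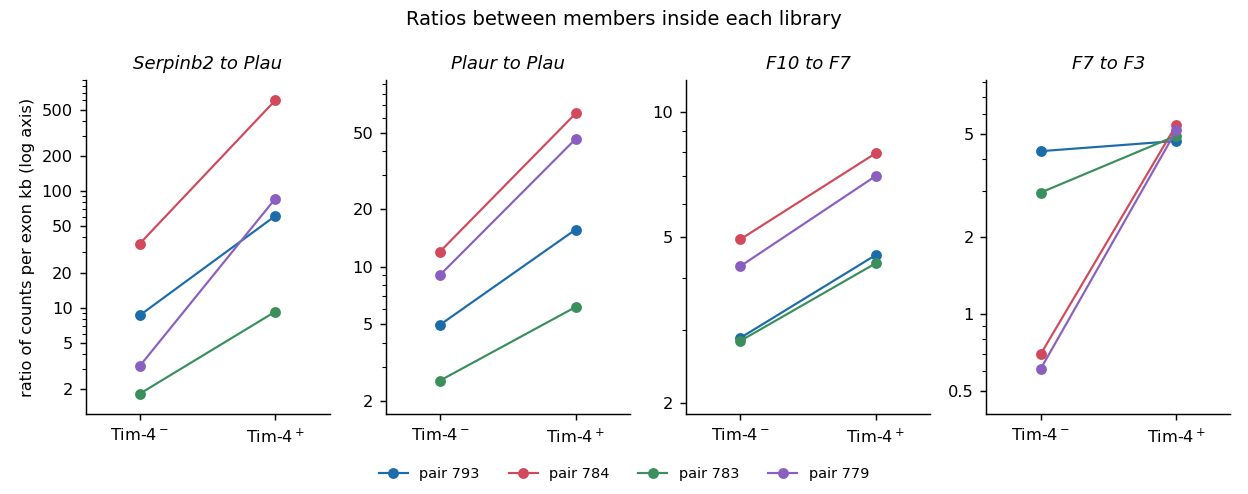
Ratios between genes within each library, as counts per kb of exon (log axis), for *Serpinb2* to *Plau*, *Plaur* to *Plau*, *F10* to *F7* and *F7* to *F3*, with a line for each of 4 pairs. Every line climbs from Tim-4- to Tim-4+, and only for *F7* to *F3* do the Tim-4+ values (4.71 to 5.44) lie above all Tim-4- values (0.612 to 4.30).

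Levels per kb of exon, the scale on which genes can be compared, put the 9 genes in a different order in the 2 fractions. In Tim-4+ TAMs the mean CPM per kb was 969.7 for *Serpinb2*, 354 for *F10*, 215 for *Plaur*, 211 for *F13a1*, 139 for *F5*, 58.1 for *F7*, 12.7 for *Thbd*, 11.5 for *F3* and 10.8 for *Plau*. The ranges of neighbors in this order overlapped except between *F7* and *Thbd*. *F13a1* was above *F5* in only 1 of the 4 Tim-4+ libraries, that of pair 783, so the order of their means did not hold in most libraries. In Tim-4- TAMs *F13a1* came first at 215, then *Serpinb2* at 149, *F10* at 111, *Plaur* at 99.0, *F7* at 31.6, *F3* at 23.4, *F5* at 22.3, *Plau* at 17.8 and *Thbd* at 7.19. Here the ranges overlapped except between *Plaur* and *F7*. Among the 16861 tested genes, *F13a1*, *Serpinb2*, *F10*, *F5* and *Plaur* lay between the percentiles 98.1 and 99.6 of mean CPM, and *F7*, *F3*, *Thbd* and *Plau* between 69.4 and 86.0.

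The size of the difference varied between pairs in a common way. For 6 of the 6 genes called higher, both pairs 784 and 779 had larger log2 ratios than both pairs 793 and 783. For *F10* the ratios were 1.96 and 2.29 against 0.87 and 1.41, and for *Plaur* they were 1.26 and 1.46 against 0.74 and 0.86. The same pattern was found in 64.2% of all 1512 genes called higher and in 23.8% of all genes tested, so it was not particular to these genes. Pairs 784 and 779 also had the lowest share of *Timd4* in Tim-4- relative to Tim-4+ TAMs, at 0.638% and 0.169%, against 7.32% and 4.25% in pairs 793 and 783. A fit with pairs 784 and 779 left out was added after the data were seen and rests on pairs 793 and 783 only. It called *F5* (log2 fold change 1.85), *Serpinb2* (1.92), *F10* (1.14) and *Plaur* (0.80). *F7*, *Thbd* and *Plau* were not called (adjusted p = 0.192, 0.194 and 0.0889, the quasi-likelihood test of edgeR with Benjamini-Hochberg adjustment over the genes tested). The pairs kept had similar ratios for *F5*, 1.92 and 1.77, and its SE was 0.13 against 0.40 in the main fit. These calls are therefore no check of stability, and without pair 784 alone 0 of the 9 were called.

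Other genes followed these 9 closely across the 8 libraries, by the root mean square difference of centred log2 CPM. After *Selp*, *Pi16* (0.257) and *Garnl3* (0.292) were nearest to *F5*. *Cav1*, which encodes the caveolae protein caveolin-1, was nearest to *F10* (0.259), *Emilin2*, an extracellular matrix gene, to *F7* (0.129), *Ppm1h* to *Thbd* (0.107) and *Pard3b* to *Plaur* (0.116). *Nupr1*, a stress-response gene, was among the 3 nearest of both *F10* (0.284) and *Plaur* (0.182). *Nrp1*, which encodes the receptor neuropilin-1, was nearest to *F13a1* (0.218) and second to *Plau* (0.277), behind *Fgd2* (0.251). *Csf1*, the gene for the macrophage growth factor CSF-1, was second to *F3* (0.288), behind *Uaca* (0.267). No gene was that close to *Serpinb2*, whose nearest, *P2ry2*, differed by 0.689. The difference is not scaled to the spread of a gene, and *Serpinb2* varied the most of the 9. Its SD over the 8 libraries was 1.87 in log2 CPM, against 1.63 for *F5* and 0.793 for *F3*.

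The other genes of the system were read from lists of 47 genes, of which 22 had enough counts to test, 4 were called higher and 4 lower, with a median log2 fold change of -0.10. Scaled by total counts, 2 were called higher and 10 lower, and without pair 784 the edgeR test called 0, with 4 higher and 4 lower at an unadjusted p under 0.05. Of the 13 other procoagulant genes, 10 were not tested, with at most 12 counts in any library, and fibrinogen (*Fgb* and *Fgg*) was at 0 counts. None of the 3 tested was called by edgeR, 1 had an unadjusted p under 0.05, and none was called by DESeq2, while scaling by total counts called *Vwf* lower (log2 fold change -1.13, adjusted p = 0.0288, edgeR). *Vwf*, the gene for von Willebrand factor, was at 1.36 ± 1.22 CPM in Tim-4+ and 2.07 ± 1.54 CPM in Tim-4- libraries (SD, n = 4 each; adjusted p = 0.106, edgeR), and *F9*, the gene for factor IX, was at 0.512 ± 0.154 and 0.598 ± 0.375 CPM. Hepatocyte markers, of the cell type that makes most clotting factors, summed to at most 0.256 CPM in Tim-4+ and 0.276 CPM in Tim-4- TAMs, the most abundant being *Apoa1*.

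Factors VII and X need vitamin K-dependent carboxylation, and factor V needs a cargo receptor to leave the cell. Of 5 genes for these steps, 4 were tested and 2 were called higher. *Vkorc1*, which encodes the enzyme that warfarin blocks, was at 25.0, 17.7, 13.9 and 23.7 CPM in Tim-4+ TAMs and at 13.9, 8.50, 11.4 and 13.9 CPM in Tim-4- TAMs (log2 fold change 0.74, SE 0.16, adjusted p = 0.0198 in the quasi-likelihood test of edgeR with Benjamini-Hochberg adjustment). *Lman1*, the cargo receptor for factor V, was at 167, 173, 133 and 195 CPM against 106, 99.7, 94.5 and 95.8 CPM (log2 fold change 0.74, SE 0.12, adjusted p = 0.00993, edgeR). *Vkorc1* lost its call with total counts (log2 fold change 0.38, adjusted p = 0.0911, edgeR) and without pair 779, 784 or 793 (adjusted p from 0.0747 to 0.0972, edgeR). The groups did not overlap for *Lman1* and met at 13.9 CPM for *Vkorc1*. *Mcfd2*, the partner of *Lman1*, had a log2 fold change of -0.02 (95% interval -0.24 to 0.20), and *Vkorc1l1*, a paralog of *Vkorc1*, had -0.14 (95% interval -0.51 to 0.23). *Ggcx*, the gene for the carboxylase itself, was listed at 0 counts in all libraries. Whether this reflects the cells or the annotation used for counting was not tested.

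**Figure D4:**
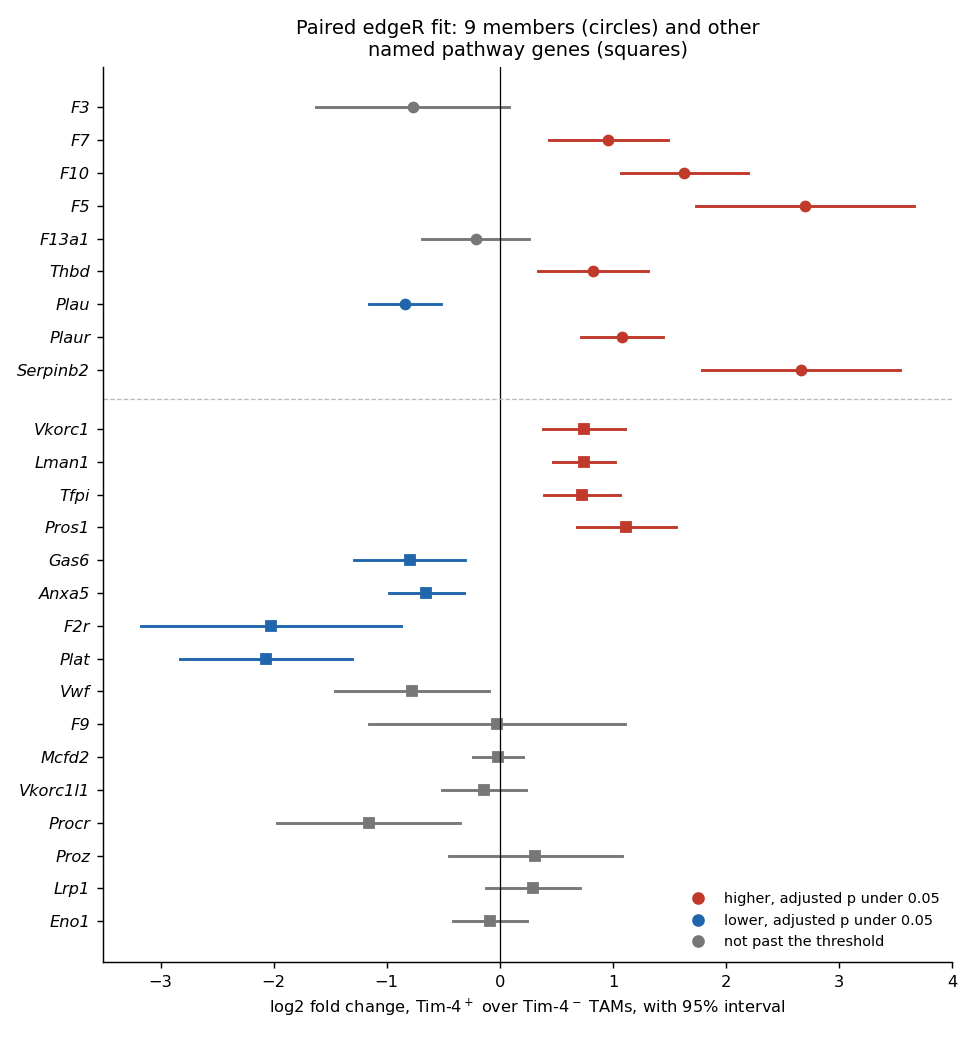
Log2 fold change of Tim-4+ over Tim-4- TAMs with its 95% interval from the paired edgeR fit (x axis) for the 9 genes (circles) and the named genes of the wider lists (squares), red for higher, blue for lower and gray for not past an adjusted p of 0.05. *F5* (2.70) and *Serpinb2* (2.66) lie farthest right, and *Plat* (-2.06) and *F2r* (-2.02) farthest left.

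Among 13 anticoagulant and inhibitor genes, 7 were tested, 2 were called higher and 2 lower. *Pros1*, the gene for protein S, the cofactor of protein C, was at 194, 179, 147 and 178 CPM in Tim-4+ TAMs and at 111, 66.0, 96.9 and 57.5 CPM in Tim-4- TAMs, with no overlap (log2 fold change 1.12, SE 0.19, adjusted p = 0.0120 in the quasi-likelihood test of edgeR with Benjamini-Hochberg adjustment). *Tfpi*, the gene for the inhibitor of the tissue factor and factor VII complex, was higher at 15.8 ± 2.60 against 9.67 ± 2.52 CPM (SD, n = 4 each; log2 fold change 0.73, SE 0.15, adjusted p = 0.0175, edgeR). *Thbd*, *Pros1* and *Tfpi* were called in the same direction as *F5*, *F7* and *F10*, but *Tfpi*, like *Thbd*, lost its call with total counts (log2 fold change 0.37, adjusted p = 0.0955, edgeR) and without pair 779, 784 or 793 (adjusted p from 0.0671 to 0.0889, edgeR). *Gas6*, which encodes a ligand of receptor kinases and is listed here as a relative of protein S, was called lower (log2 fold change -0.80, SE 0.21). *Anxa5*, which encodes a protein that covers phosphatidylserine, was also called lower (log2 fold change -0.65, SE 0.14). Both calls were lost without pair 779, 784 or 793 (adjusted p from 0.0574 to 0.157, edgeR). *Procr*, the gene for the endothelial protein C receptor, was at 2.74 ± 0.788 CPM against 7.18 ± 4.61 CPM (SD, n = 4 each) and did not pass (adjusted p = 0.0582, edgeR).

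*F2r*, the gene for the thrombin receptor PAR1, was the only 1 of 4 protease-activated receptor genes with enough counts to test. It was at 4.03, 4.04, 7.95 and 13.2 CPM in Tim-4+ TAMs and at 15.6, 31.1, 9.16 and 94.96 CPM in Tim-4- TAMs and was called lower (log2 fold change -2.02, SE 0.48, adjusted p = 0.0348 in the quasi-likelihood test of edgeR with Benjamini-Hochberg adjustment). The *F2r* call was lost without pair 779, 784 or 793 (adjusted p from 0.116 to 0.135), without the pair term (0.102) and with no count filter (0.247), all in edgeR. Of 12 other fibrinolysis genes, 7 were tested. *Plat*, which encodes tissue plasminogen activator, was at 5.80, 8.10, 14.2 and 10.5 CPM in Tim-4+ TAMs and at 19.2, 49.0, 29.4 and 76.5 CPM in Tim-4- TAMs, and was called lower with no overlap (log2 fold change -2.06, SE 0.32, adjusted p = 0.0120, edgeR), a call lost with no count filter (adjusted p = 0.0673, edgeR). Like *F3*, *F2r* and *Plat* were highest in the Tim-4- libraries of pairs 784 and 779, where the mesothelial and epithelial markers were highest, and the part of those cells was not tested. Fibroblast markers, with *Dcn* called lower, summed to 163 and 173 CPM in these 2 libraries and to 49.9 and 80.2 CPM in the other 2 Tim-4- libraries.

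Both plasminogen activator genes, *Plau* and *Plat*, were called lower in Tim-4+ TAMs. *Lrp1*, the gene for the receptor that clears activator and inhibitor complexes, was at 2369 ± 706 CPM in Tim-4+ and 2031 ± 976 CPM in Tim-4- libraries (SD, n = 4 each; adjusted p = 0.290, edgeR), and *Eno1*, whose product is also a plasminogen receptor, was at 617 ± 66.1 and 656 ± 78.9 CPM. *Plg*, the gene for plasminogen itself, was at 0 counts in all libraries.

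Sources other than macrophages were also read for the remaining genes. The 8 granulocyte markers summed to 252 to 369.5 CPM in Tim-4+ and to 87.1 to 191 CPM in Tim-4- TAMs, nearly all of it from *Csf3r*, at 317 ± 49.2 CPM against 145 ± 43.5 CPM (SD, n = 4 each). *Csf3r* was called higher, *S100a8* (2.10 against 1.601 CPM) and *Elane* (0.254 against 0.323 CPM) were not, and the other 5 were too low to test. Lymphocyte markers summed to at most 12.9 CPM, with *Cd79a* the most abundant. Dendritic cell markers, led by *Zbtb46*, summed to 13.3 to 29.4 CPM in Tim-4+ and 10.3 to 17.4 CPM in Tim-4- TAMs. Of these, *Cd209a* was called higher and *Zbtb46* lower. Mast cell markers, led by *Cpa3*, summed to 0.560 to 1.56 CPM in Tim-4+ and 0.433 to 26.6 CPM in Tim-4- TAMs, with *Mcpt4* called lower. The part of these cell types in the levels of the 9 genes was not tested.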

How the data were processed

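Tim-4+ and Tim-4- TAM libraries (4 each) were compared as 4 pairs. The deposited values are raw counts of reads per gene, unnormalized, for 16 lanes, 2 per library. The submitters' processing notes name FastQC 0.11.3, TopHat2 2.0.13, Cufflinks, Cuffdiff 2.2.1 and mm10 (GRCm38), whereas the methods name hg19. The counter and its use of strand are not given in the sources used here, so genes with an antisense or overlapping partner are uncertain. Reads that were ambiguous, not unique or on no feature were 18.9% to 32.9% of a lane and were left out. In the Tim-4- library of pair 779, 24.5% of reads were not unique in lane 1 and 9.11% in lane 2.

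Lanes were summed. 1 lane, of the Tim-4- library of pair 793, is listed by symbol and was joined by row order, with 94.8% of symbols, and all 9 members, matching at their place. Names, exon lengths and coordinates are from GENCODE M21, which held 98.6% of identifiers. Genes that reached 10 counts in 4 or more libraries were tested with edgeR 4.0.16 in R 4.3.3 (quasi-likelihood test, robust, TMM, pair as a block, Benjamini-Hochberg adjustment over 16861 genes, threshold 0.05). The pairing comes from the labels' numbers, and within a pair the deviations from the group means correlated at 0.277 to 0.498 across genes, which are not independent replicates. Alternatives were other scalings, filters, lanes and joins, DESeq2 1.42.0, no pair term, and each pair left out. In data simulated for this comparison on 16861 genes, 75.5% of 200 genes changed by 1.5 on the log2 scale were called, 9.04% of calls were false, and 0 calls were made with no change.

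The 9 genes, the wider lists and the marker lists were chosen with earlier results of these data known. Genes named beside the 9 are those called in the wider lists and the 2 most abundant uncalled ones of each list. Also named are the most abundant marker of each list and genes among the 3 nearest in pattern to each of the 9. For most of the 9, not all of the 3 nearest are named. Neighbors on the chromosome, markers at 0 or called, and genes at 0 counts were named after their values were seen. An item of the wider lists is not reported here. Counting limits cover counting error only.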

Additional observations from a re-analysis of the deposited data

Results flagged for a closer look

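The 9 genes formed 18 sets of 4 libraries. In 2 of them, 1 library stood apart from the other 3 by Dixon's criterion at the 95% level. The criterion compares the gap to the nearest library with the range, and it was applied to CPM, not to log2 values. Chance flags about 1 in 20 sets of normally distributed values. The 18 sets share the same 8 libraries and are not independent. *F5* was at 376 CPM in the Tim-4- library of pair 793, with a gap of 0.895 of the range, against 82.4 to 113 CPM in the other 3. *F7* was at 102 CPM in the same library, with a gap of 0.968 of the range, against 43.3 to 45.1 CPM in the other 3. That library also held the most *Timd4* of the Tim-4- libraries, at 85.0 CPM, and whether carried-over Tim-4+ cells had a part in these values was not tested.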

How the results depend on the processing

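Under 17 alternatives the 9 genes' log2 fold changes kept their direction and their side of the threshold in 126 cases, missed the threshold in 25, passed it in 1 and reversed in 1. Without the pair term (no replicate block), the calls fell from 6 higher and 1 lower to 0 and 0 among the 9 genes, to 1 higher and 0 lower of the wider lists, and to 147 and 85 of all genes. With each pair left out in turn, the ranges were 0 to 6 higher and 0 to 2 lower among the 9, 0 to 4 and 0 to 5 in the wider lists, and 91 to 1603 and 67 to 1983 over all genes, the lowest being without pair 784. The fit without pair 779 called 4 of the 9 higher. Total counts gave 2 higher and 10 lower in the wider lists and 789 and 4906 over all genes, so that 13.8% of calls were higher against 51.6% with TMM. DESeq2 called 2323 genes lower. A call with at least 2-fold left 0 lower of the 9, 1 higher and 2 lower of the wider lists, and 641 higher of all. Leaving out pairs 784 and 779, chosen after seeing the data, left 0 lower of the 9, 1 higher and 1 lower of the wider lists, and 313 and 141 of all, and turned *F3* to 0.0647 and *Proz* to -0.303 (log2 fold changes). Leaving out lane 2 of the Tim-4- library of pair 779, also chosen afterwards, changed no call among the 9. Other reversals were of uncalled genes near 0, namely *F9* (0.0603 with lane 1 only, and -0.360 to 0.185 with a pair left out), *Mcfd2* (0.00770 with lane 1 only, and -0.0432 to 0.0142 with a pair left out), *Vkorc1l1* (-0.257 to 0.00460 with a pair left out), *Proz* (-0.0450 with total counts, and -0.00260 to 0.635 with a pair left out) and *Lrp1* (-0.0637 with total counts). The causes were not tested. The 9 genes had 468 or more counts in every library, while 25 genes of the wider lists were too low to test.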
